A study of Mus musculus with 2 samples.

Results

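The genes described here are the vacuolar protein sorting genes named Vps, the charged multivesicular body protein genes named Chmp and the sorting nexin genes named Snx, each with a number after the prefix. They were picked by symbol alone, among probe sets annotated with a single gene symbol. The rule uses no measured value, but it was set with earlier results of these data known. The rule found 58 of the 12393 genes on the array, read by 93 probe sets, with 28 Vps, 9 Chmp and 21 Snx genes among them. All 58 symbols matched RefSeq through their Entrez identifiers. The label of endosomal sorting holds for most of them, but Vps72 encodes a histone chaperone of chromatin remodelling complexes and is a member by name only.

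Affymetrix arrays were hybridised with material from 1 sample of primitive haematopoietic stem cells (HSC) and 1 sample of maturing HSC from mouse bone marrow. Per the labels, primitive HSC kept long-term repopulating activity and maturing HSC had largely lost it. Both were sorted by flow cytometry after 30 min of culture and received no treatment. The sources used here do not give strain, age, surface phenotype or number of pooled animals. RNA from each was turned into a cloned cDNA library before labelling, so each intensity reports a share of that library.

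Membrane proteins marked with ubiquitin are sorted on endosomes by the ESCRT complexes, which act in sequence. ESCRT-I and ESCRT-II gather cargo, ESCRT-III subunits polymerise into filaments that cut the membrane neck, and the ATPase Vps4 takes the filaments apart. Retromer and retriever, with sorting nexins that bind phosphoinositides through a PX domain, return cargo from endosomes to the Golgi or the cell surface, and tethering complexes bring vesicles to endosomes, lysosomes and the Golgi. In blood cells these routes set how long cytokine and adhesion receptors stay at the surface.

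On these arrays the family split between the 2 populations much as all measured genes did. Of 58 members, 53 were measured, meaning above the intensity floor of 440.8 on at least 1 array. Among the 53, 29 (54.7%) were higher in primitive HSC and 24 in maturing HSC, while 52.9% of all measured genes were higher in primitive HSC. That share also stands beside the counts of sides by role below. The ESCRT genes Vps36 and Vps37a were at least 4-fold higher in primitive HSC, which is 2 of 53 members (3.77%) against 3.47% of all 8854 measured genes. Chmp4b and the sorting nexins Snx1, Snx4, Snx17 and Snx18 passed 4-fold toward maturing HSC, which is 5 of 53 (9.43%) against 4.65% of all measured genes. At 2-fold, 10 members (18.9%) were higher in primitive HSC, where 15.8% of all measured genes were, and 13 (24.5%) in maturing HSC, where 17.5% were. The other 30 members did not reach 2-fold, nor did 66.6% of all measured genes, and 10 of these 30 are lower bounds whose difference may be larger.

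The median log2 ratio of primitive over maturing HSC was 0.12 over the measured members (exact binomial 95% interval over genes -0.36 to 0.54) and 0.07 over all measured genes. Over the 33 members above the floor on both arrays it was 0.38, beside 0.09 for all such genes. Of the other members, 7 gave only a lower bound toward primitive HSC, 13 gave only a lower bound toward maturing HSC, and Vps25, Vps33b, Vps45, Chmp4c and Snx30 lay under the floor on both arrays. A member above the floor on a single array necessarily differs. With 1 array a group there was no replicate and no test was possible, and a smaller share of cells with a transcript cannot be told apart from less transcript per cell.

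Probe sets of 1 gene gave the available measure of spread. Their log2 ratios had a pooled SD of 0.82 over 1317 genes with several probe sets above the floor on both arrays. Over the 5 members that had them it was 0.98. This SD holds no variation between samples, libraries or arrays, so a ratio outside it is not thereby established. It also leaves out probe sets under the floor on 1 array, among them the opposed probe sets of Snx4 and 1 of those of Vps35. Of the 53 measured members, 28 (52.8%) had a ratio smaller than 0.82 in size, as did 58.3% of all measured genes. Of these 28, 18 exceeded the floor on both arrays and lie inside the spread between probe sets, and 10 are lower bounds, which cannot be placed inside it. All 18 hybridisation control probe sets were brighter on the primitive array (median log2 ratio 0.98), and scaling to them moved the median of all measured genes to -0.74 and that of the members to -0.73. Under that scaling 17 members changed sides, which left 10 of 52 measured members higher in primitive HSC, and Vps26c and Snx29 had no ratio. The share of all genes that changed sides was not counted, so the 17 cannot be read as particular to the members. The members' median stood 0.01 above that of all genes, where it had stood 0.05 above it.

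Of the 9 stem cell markers with a probe set, 7 exceeded the floor on both arrays, and Abcg2 and Mecom did so in primitive HSC only. Of the 9, 6 were higher in primitive HSC, and Kit, Cd34 and Hlf were higher in maturing HSC. The 9 summed to 26966 in primitive and 20526 in maturing HSC, where Procr alone read 11595 and 1891. Markers of other cell types also gave signal. Of 10 neutrophil and monocyte markers, 10 were measured and 7 were higher in primitive HSC (sums 132029 and 69246). Of 6 T and natural killer cell markers 4 were measured and 3 were higher in primitive HSC (55206 and 10349). In these last sums Ccl5 alone read 37876 in primitive and 1508 in maturing HSC. Of 6 B cell markers 4 were measured and 3 were higher in maturing HSC, with sums of 1689 in primitive and 3326 in maturing HSC. Megakaryocyte markers summed to 6419 and 6365 with 4 of 5 measured, and erythroid markers to 3017 and 1538 with 2 of 6 measured, in primitive and in maturing HSC in each case. Cd3e, Cd3g, Ebf1, Hba-a1, Alas2 and Ppbp were under the floor on both arrays. Whether this signal came from other cells or from the HSC was not tested, nor was its part in the results below.

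ESCRT-I and ESCRT-II held both members furthest toward primitive HSC. Vps36, the ESCRT-II subunit that binds ubiquitin, read 6736 in primitive HSC against 465 in maturing HSC, a 14.5-fold difference. The maturing value stood just above the floor, and a second Vps36 probe set was under the floor on both arrays, at 374 and 309 in primitive and maturing HSC. Vps37a, an ESCRT-I subunit, read 4712 in primitive HSC against 58.1 in maturing HSC, at least 10.7-fold higher in primitive HSC. Its other probe set read 1234 in primitive HSC against 852 in maturing HSC, 1.45-fold apart in the same direction. Thus both Vps37a probe sets went the same way but differed widely in size.

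The remaining subunits of these complexes gave smaller ratios or bounds, or were not measured. Vps28, the ESCRT-I subunit that contacts ESCRT-II, read 6392 in primitive HSC against 5423 in maturing HSC. Vps37b and Vps37c, which can take the place of Vps37a in ESCRT-I, read 1215 and 302 in primitive HSC against 781 and 558 in maturing HSC. Vps28 and Vps37b ratios lay inside the probe set spread, and the primitive Vps37c value was under the floor. Vps25, the ESCRT-II subunit that binds ESCRT-III, read 98.4 in primitive HSC and 8.58 in maturing HSC, both under the floor, so the Vps36 difference has no measured partner among the members.

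ESCRT-III genes and Vps4 fell on both sides, with 5 of 10 measured genes higher in each population. Chmp4b, whose product makes up the bulk of ESCRT-III filaments, read 958 in primitive HSC against 3919 in maturing HSC, 4.09-fold higher in maturing HSC. A second Chmp4b probe set read 578 in primitive HSC against 997 in maturing HSC, 1.73-fold apart in the same direction. Chmp1a and Chmp1b, late ESCRT-III subunits that recruit Vps4, read 162 and 257 in primitive HSC against 1072 and 991 in maturing HSC. Chmp3, which joins the end of the filament, read 208 in primitive HSC against 953 in maturing HSC. These 3 genes were under the floor in primitive HSC, which bounds the difference toward maturing HSC at 2.43-fold or more for Chmp1a, 2.25-fold or more for Chmp1b and 2.16-fold or more for Chmp3.

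On the other side, Chmp6, the subunit through which ESCRT-II starts the filament, read 1212 in primitive HSC against 68.3 in maturing HSC, or 2.75-fold or more. Chmp2a, which acts with Chmp3, read 4137 in primitive HSC against 2105 in maturing HSC, a 1.96-fold difference. Chmp5, which binds the Vps4 cofactor Vta1, and Chmp7, which also serves in sealing the nuclear envelope, were 1.46-fold and 1.21-fold higher in primitive HSC, inside the probe set spread. Chmp4c was under the floor on both arrays. Hence Chmp2a and Chmp3, which work at the same step, lay on opposite sides by the probe sets used, but this contrast was not settled. The second Chmp3 probe set read 456 in primitive HSC against 34.4 in maturing HSC. For Chmp2a the log2 ratio was -0.006 when scaled to the hybridisation controls.

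The paralogues Vps4a and Vps4b, which encode interchangeable forms of the ATPase that ends the ESCRT cycle, also parted. Vps4a read 3596 in primitive HSC against 1042 in maturing HSC, 3.45-fold higher in primitive HSC. Vps4b read 1567 in primitive HSC against 3638 in maturing HSC, 2.32-fold higher in maturing HSC. Both genes were above the floor on both arrays, each was read by a single probe set, and each kept its side under every scaling tried. Over the 15 measured ESCRT and Vps4 genes the median log2 ratio was 0.27, and it was -0.71 when scaled to the hybridisation controls.

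**Figure D1:**
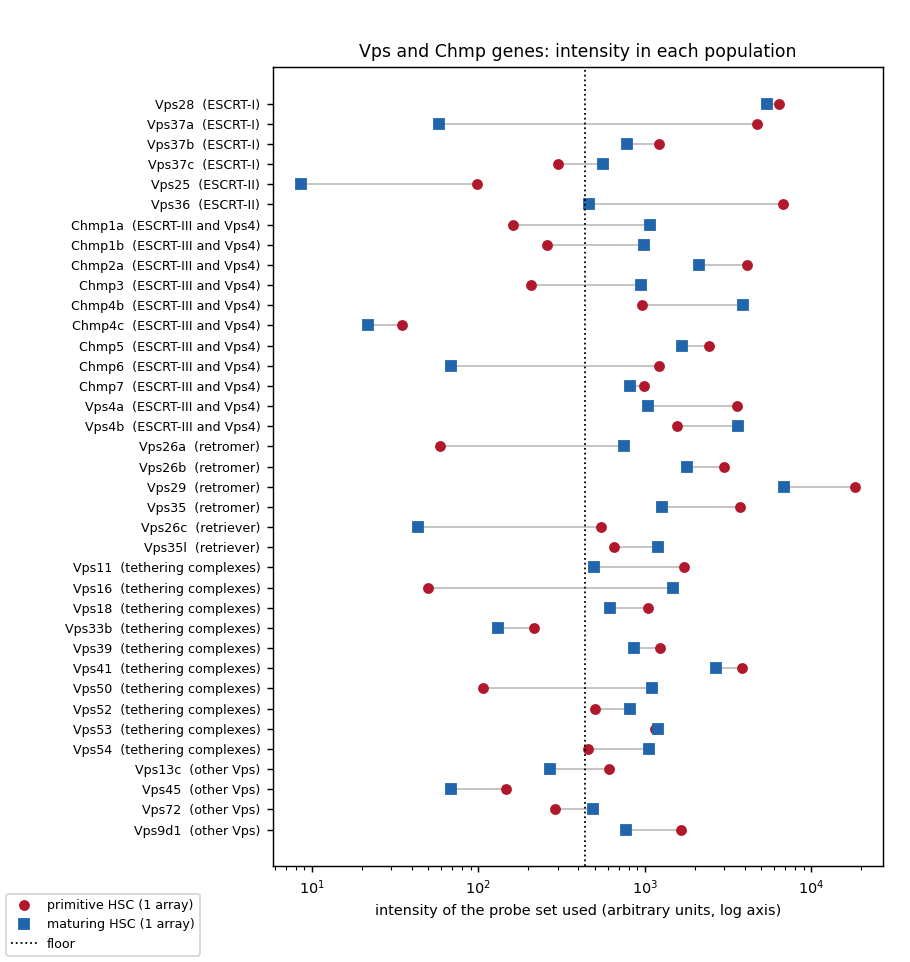
Intensity of every Vps and Chmp gene in primitive HSC (circles) and maturing HSC (squares), with the role of each gene in brackets and the floor of 440.8 as a dotted line on a log axis. Vps36 and Vps37a lie far to the right in primitive HSC, at 6736 and 4712, and Vps4a and Vps4b are set apart in opposite directions.

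Stretches of 250 bases before the transcription start are given for the Vps4 pair, since the 2 paralogues ran opposite to each other. Vps36, Snx1, Snx17 and Snx18, picked from the members past 4-fold, are given as well. Chmp4b, Snx4 and Vps37a also passed 4-fold and are not shown, although Chmp4b and Vps37a had no measured probe set on the other side. For Vps37a no window was available. The stretches are from RefSeq on GRCm38.p6, each read 5′ to 3′ on the strand of its gene. That of Snx17 precedes a later start, so its last bases fall within the annotated gene, which begins at position 31193262. Capitals mark matches on either strand to CACGTG (the E-box that lysosomal gene activators of the Tfeb family bind), CCGGAAG (ETS factors), GGGCGG (GC box) and CCAAT, none of which overlapped another in these windows.
Vps36, chr8:22192583-22192832, plus strand: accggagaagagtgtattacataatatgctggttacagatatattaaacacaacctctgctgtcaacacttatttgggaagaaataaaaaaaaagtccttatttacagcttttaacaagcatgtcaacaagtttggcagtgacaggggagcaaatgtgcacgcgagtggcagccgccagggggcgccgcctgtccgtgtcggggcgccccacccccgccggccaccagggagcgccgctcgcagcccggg
Vps4a, chr8:107031019-107031268, plus strand: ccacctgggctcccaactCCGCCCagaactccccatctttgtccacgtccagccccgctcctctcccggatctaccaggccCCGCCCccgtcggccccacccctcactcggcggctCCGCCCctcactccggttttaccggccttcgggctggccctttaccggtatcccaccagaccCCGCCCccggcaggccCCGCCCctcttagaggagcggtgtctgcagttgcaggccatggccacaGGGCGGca
Vps4b, chr1:106796726-106796975, minus strand: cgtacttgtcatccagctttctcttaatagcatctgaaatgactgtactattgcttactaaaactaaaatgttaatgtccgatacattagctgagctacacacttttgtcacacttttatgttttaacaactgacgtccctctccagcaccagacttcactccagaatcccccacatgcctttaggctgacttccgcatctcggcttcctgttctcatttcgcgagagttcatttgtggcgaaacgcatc
Snx1, chr9:66124887-66125136, minus strand: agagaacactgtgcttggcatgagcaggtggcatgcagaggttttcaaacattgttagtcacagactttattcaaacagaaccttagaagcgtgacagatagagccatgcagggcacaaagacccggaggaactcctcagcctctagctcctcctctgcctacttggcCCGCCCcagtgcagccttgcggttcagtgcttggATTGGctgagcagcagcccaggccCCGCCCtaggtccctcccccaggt
Snx17, chr5:31193054-31193303, plus strand: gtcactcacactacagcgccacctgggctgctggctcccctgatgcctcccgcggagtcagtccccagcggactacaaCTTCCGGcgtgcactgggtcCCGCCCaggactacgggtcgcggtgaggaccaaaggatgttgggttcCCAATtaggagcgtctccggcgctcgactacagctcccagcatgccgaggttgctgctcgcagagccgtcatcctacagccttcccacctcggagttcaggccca
Snx18, chr13:113618565-113618814, minus strand: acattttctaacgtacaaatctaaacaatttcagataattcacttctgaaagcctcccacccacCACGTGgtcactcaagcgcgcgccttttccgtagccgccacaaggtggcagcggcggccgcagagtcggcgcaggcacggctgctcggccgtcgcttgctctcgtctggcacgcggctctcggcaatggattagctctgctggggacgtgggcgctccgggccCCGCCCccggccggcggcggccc

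The Vps4a stretch held 6 GC boxes and was 70.8% G and C, whereas the Vps4b stretch held none of the 4 motifs and was 43.2% G and C. Vps36 had no match, at 53.6% G and C. Snx1 held 2 GC boxes and a CCAAT box, Snx17 an ETS site, a GC box and a CCAAT box, and Snx18 an E-box and a GC box. Of the windows not shown, that of Chmp4b had no match and that of Snx4 held 4 GC boxes. RefSeq windows were matched for 38 of the 58 members. Of these, 4 (10.5%) held an E-box, beside 9.19% of 9882 genes on the array with a window, namely Snx5, Snx18, Vps16 and Vps26a. An ETS match stood in 9 members (23.7%), beside 12.9% of genes on the array, a GC box in 25 (65.8%) beside 57.0%, and a CCAAT box in 10 (26.3%) beside 39.8%. A match is a run of letters in the window and was not tied to the ratios by any measurement here.

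Retromer consists of Vps35, Vps29 and either Vps26a or Vps26b, and the 2 forms of the last subunit lay on opposite sides. Vps29 read 18322 in primitive HSC against 6887 in maturing HSC, 2.66-fold higher in primitive HSC. Its other measured probe sets read 7908 and 587 in primitive HSC against 3416 and 515 in maturing HSC, so all 3 went the same way. Vps26b read 3004 in primitive HSC against 1789 in maturing HSC, and Vps26a 58.8 against 747, the last under the floor in primitive HSC with a bound of 1.69-fold toward maturing HSC. The Vps26b ratio of 0.75 lay inside the probe set spread and turned to -0.23 when scaled to the hybridisation controls.

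Vps35, the scaffold of retromer, had no settled direction. One probe set read 3717 in primitive HSC against 1269 in maturing HSC, 2.93-fold higher in primitive HSC. The other read 41.5 in primitive HSC against 3920 in maturing HSC, a bound of 8.89-fold toward maturing HSC. The probe set with the higher mean stands for the gene, and scaling to the hybridisation controls exchanged the 2 and gave a log2 ratio of -3.66.

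Retriever is built like retromer from Vps29, Vps35l and Vps26c, and recycles cargo bound by Snx17. Vps35l read 655 in primitive HSC against 1197 in maturing HSC, and Vps26c 546 against 43.7. Vps35l was 1.83-fold higher in maturing HSC, and Vps26c gave a bound of 1.24-fold toward primitive HSC. The 6 retromer and retriever genes had a median log2 ratio of 0.53, which became -0.08 with the median of each gene's probe sets. When scaled to the hybridisation controls the median was -1.27, but not over the same readings. Vps26c then had no ratio, and the opposed Vps35 probe set stood for its gene.

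Tethering complexes had 9 of 10 members measured, 4 higher in primitive HSC and 5 in maturing HSC. Vps11, Vps16 and Vps18 form the core that the HOPS complex of late endosomes and the CORVET complex of early endosomes share. Vps11 read 1727 in primitive HSC against 498 in maturing HSC, 3.46-fold higher in primitive HSC, and all 3 of its probe sets went that way. Vps18 read 1041 in primitive HSC against 618 in maturing HSC, inside the probe set spread, with a second probe set on the other side. Vps16 read 49.8 in primitive HSC against 1473 in maturing HSC, a bound of 3.34-fold toward maturing HSC. The shared core thus had its subunits on both sides.

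Vps39 and Vps41, the HOPS-specific subunits, were 1.45-fold and 1.43-fold higher in primitive HSC, at 1243 and 3820 against 857 and 2671 in maturing HSC. Both ratios lay inside the probe set spread and turned to log2 ratios of -0.44 and -0.46 when scaled to the hybridisation controls. Vps52 and Vps53 belong to both the GARP complex of the Golgi and the EARP complex of recycling endosomes, while Vps54 is specific to GARP and Vps50 to EARP. All 4 were lower in primitive HSC. Vps54 read 456 in primitive HSC against 1062 in maturing HSC, 2.33-fold higher in maturing HSC, with a second probe set on the same side. Vps50 read 107 in primitive HSC against 1105 in maturing HSC, at least 2.51-fold higher in maturing HSC. Vps52 read 505 in primitive HSC against 817 in maturing HSC, and Vps53 1149 against 1206, both inside the probe set spread, and Vps53 turned to a log2 ratio of 0.10 after quantile normalization and 0.05 after lowess. The median of the 9 genes was -0.07, and -1.05 when scaled to the hybridisation controls.

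Of the remaining Vps genes, Vps9d1, which carries the domain that activates Rab5-type GTPases, read 1652 in primitive HSC against 774 in maturing HSC, 2.13-fold higher in primitive HSC. Vps13c, a lipid transfer protein gene, read 611 in primitive HSC against 268 in maturing HSC, and the chromatin gene Vps72 289 against 491, both with bounds under 2-fold. Vps45, which steers membrane fusion at endosomes and whose loss causes neutropenia in humans, was under the floor on both arrays, at 147 in primitive and 69.0 in maturing HSC.

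Sorting nexins had 20 of 21 genes measured, 10 on each side, and a median log2 ratio of -0.01 that became 0.12 after quantile normalization, 0.01 after lowess and -0.83 when scaled to the hybridisation controls. The sorting nexins past 4-fold were all higher in maturing HSC. Snx17, which recycles integrins and lipoprotein receptors through a FERM-like domain, read 1254 in primitive HSC against 5912 in maturing HSC, 4.71-fold higher in maturing HSC, from a single probe set. Snx18, a BAR domain nexin that bends membrane during endocytosis and autophagy, read 324 in primitive HSC against 3343 in maturing HSC, at least 7.58-fold higher in maturing HSC. Its second probe set read 275 in primitive HSC against 1920 in maturing HSC, so both probe sets stood under the floor in primitive HSC and well above it in maturing HSC.

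Snx1, Snx2, Snx5 and Snx6 pair with one another through BAR domains into the tubule-forming coat that works beside retromer. Snx1 read 528 in primitive HSC against 2321 in maturing HSC, 4.40-fold higher in maturing HSC. Snx5 read 1268 in primitive HSC against 4181 in maturing HSC, 3.30-fold higher in maturing HSC. Of the 5 probe sets of Snx5, 4 were higher in maturing HSC and 1 in primitive HSC, with log2 ratios from -2.09 to 1.08. Snx2 and Snx6, the alternative partners, were nearly level, at 1566 and 7148 in primitive HSC against 1597 and 5499 in maturing HSC, and a second Snx6 probe set stood at -1.55. The coat genes Snx1 and Snx5 therefore read higher in maturing HSC while the retromer gene Vps29 read higher in primitive HSC, and these 3 kept their sides under every scaling tried.

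Among the other BAR nexins, Snx9, a partner of dynamin and close relative of Snx18, read 1338 in primitive HSC against 402 in maturing HSC, a bound of 3.04-fold, and its second probe set lay on the same side. Snx9 and Snx18 thus parted. Snx4, which acts in recycling and autophagy, had no settled direction. One probe set read 327 in primitive HSC against 1773 in maturing HSC, a bound of 4.02-fold toward maturing HSC. The other read 1635 in primitive HSC against 376 in maturing HSC, a bound of 3.71-fold toward primitive HSC. Without Snx4, 4 of the 5 members past 4-fold toward maturing HSC remain. Snx30 was under the floor on both arrays.

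Among nexins with little beyond the PX domain, 1 of 6 passed 2-fold, and Snx16 and Snx22 gave only bounds. Snx11 read 1340 in primitive HSC against 556 in maturing HSC, 2.41-fold higher in primitive HSC. Snx3, which works with retromer in the return of the Wnt carrier Wls, read 4266 in primitive HSC against 4228 in maturing HSC, the smallest ratio among the members above the floor on both arrays, and its sign changed after quantile normalization, lowess, centring and scaling to the hybridisation controls. Its relative Snx12 read 2101 in primitive HSC against 1368 in maturing HSC, with a second probe set on the other side. Snx10, known for its part in osteoclasts, and Snx16 and Snx22 were higher in maturing HSC by 1.39-fold, at least 1.15-fold and at least 1.28-fold.

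Snx19, which tethers lysosomes to the endoplasmic reticulum, read 1629 in primitive HSC against 998 in maturing HSC, with both probe sets on that side. Snx14, a lipid droplet contact gene of the same subfamily, read 70.2 in primitive HSC against 646 in maturing HSC, at least 1.47-fold higher in maturing HSC. Snx15, Snx20, Snx21 and Snx29 were all higher in primitive HSC, by at least 1.75-fold for Snx15 and at least 1.02-fold for Snx29, which were under the floor in maturing HSC, and by 1.14-fold for Snx21. Snx20, which binds the leukocyte adhesion ligand encoded by Selplg, read 524 in primitive HSC against 483 in maturing HSC.

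**Figure D2:**
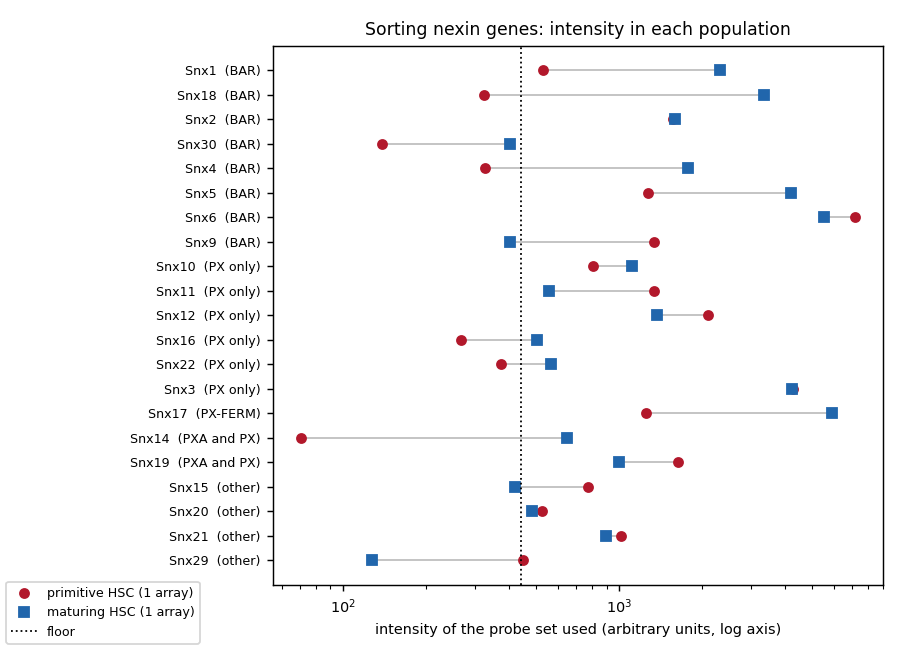
Intensity of every sorting nexin gene in primitive HSC (circles) and maturing HSC (squares), with its domain class in brackets and the floor of 440.8 as a dotted line on a log axis. Snx17 and Snx18 read 5912 and 3343 in maturing HSC, well right of their primitive values, while Snx2 and Snx3 coincide.

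The 4-fold line fell between close neighbours. Just inside it stood Snx4 at a log2 ratio of -2.01, Chmp4b at -2.03 and Snx1 at -2.14, and just outside it Vps11 and Vps4a, both at 1.79, and Vps16 at a bound of -1.74. The 6 members with the highest mean intensity were Vps29, Snx6, Vps28, Snx3, Vps36 and Snx17, and of these Snx6, Vps28 and Snx3 were 1.30-fold, 1.18-fold and 1.01-fold apart. Probe sets differ in how well they bind, so an intensity does not rank genes by abundance.

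**Figure D3:**
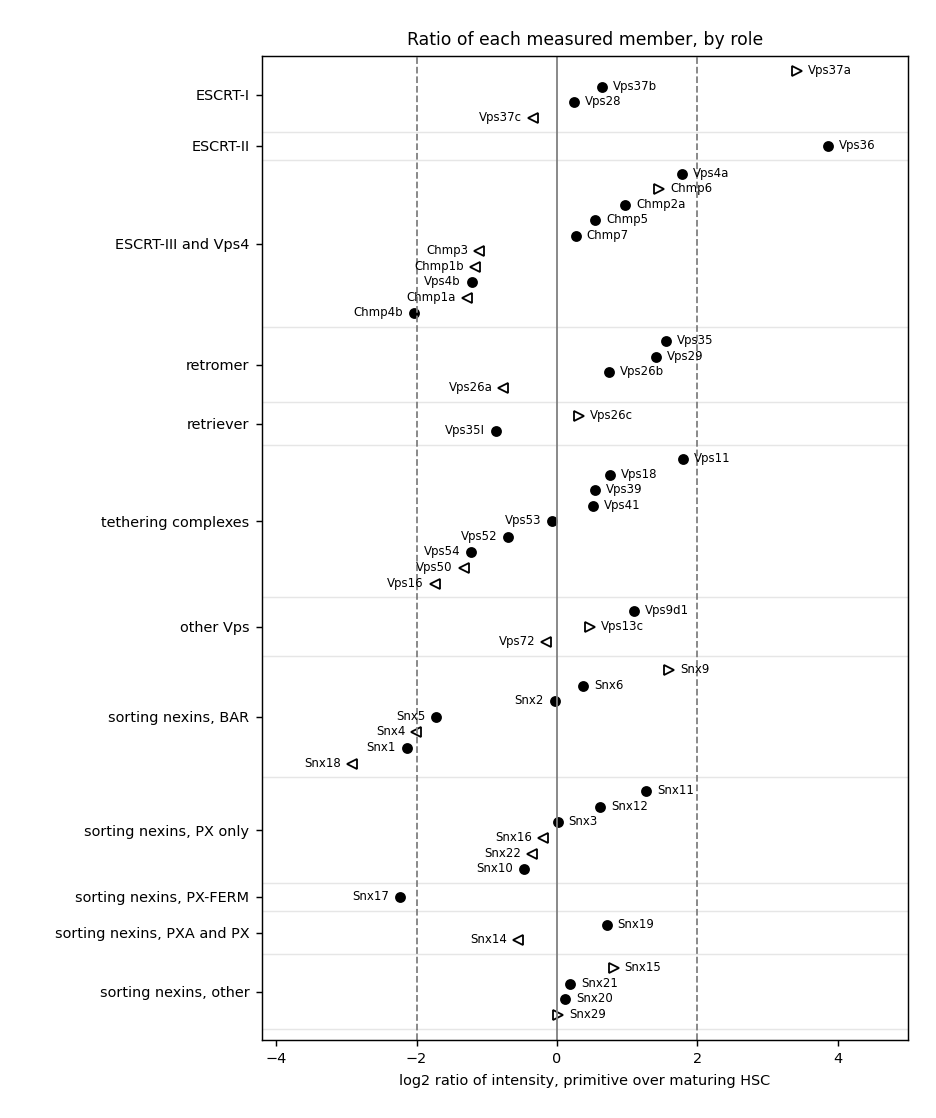
Log2 ratio of primitive over maturing HSC for the 53 measured members, grouped by role, with filled circles for genes above the floor on both arrays, open triangles for lower bounds and dashed lines at 4-fold. ESCRT-III, tethering complexes and BAR nexins spread over both sides of 0, and 7 members lie on or beyond the dashed lines.

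Several probe sets were measured for 17 members. They shared a direction in 10 members (58.8%), and in 55.4% of 2763 such genes on the array. The agreeing genes were Chmp1b, Chmp4b, Snx9, Snx18, Snx19, Vps11, Vps29, Vps37a, Vps41 and Vps54. Disagreement was found in Chmp3, Snx4, Snx5, Snx6, Snx12, Vps18 and Vps35. A further probe set annotated to Chmp1b together with a second transcript was left out of all counts, and it read 751 in primitive HSC against 60.6 in maturing HSC, opposite to both Chmp1b probe sets.

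**Figure D4:**
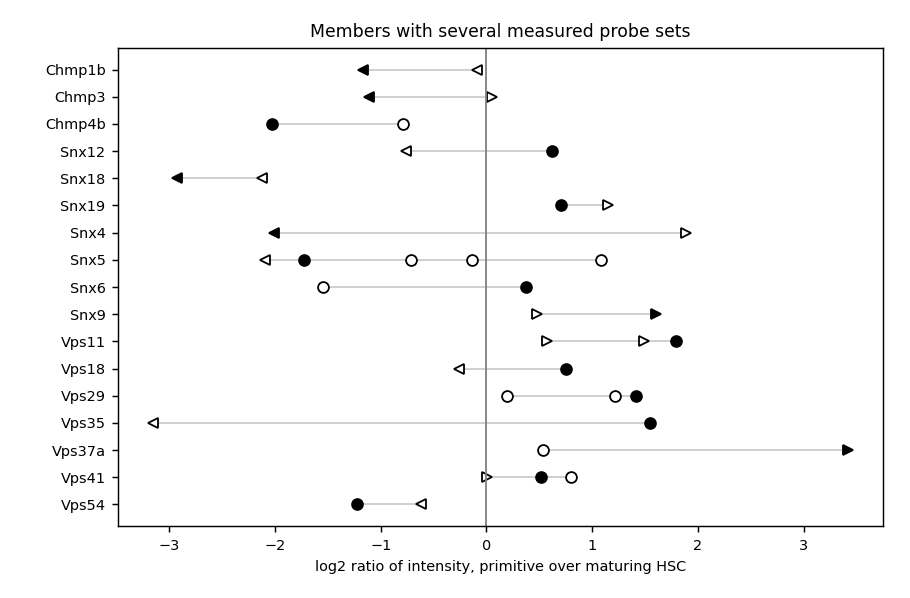
Log2 ratio of primitive over maturing HSC for each measured probe set of the 17 members that had several, with circles for probe sets above the floor on both arrays, triangles for lower bounds, filled symbols for the probe set that stands for the gene, and a line joining the probe sets of 1 gene. Vps35 reaches from -3.15 to 1.55 and Snx4 from -2.01 to 1.89, whereas both Snx18 probe sets lie below -2.

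Partners outside the naming rule were taken from a list of 46 endosomal sorting genes, of which 40 had a probe set and 36 were measured. Of these, 14 (38.9%) were higher in primitive HSC and 22 in maturing HSC, while 52.9% of all measured genes were higher in primitive HSC. Their median log2 ratio was -0.28 beside 0.07 for all measured genes, and -1.18 when scaled to the hybridisation controls. At 2-fold, 6 were higher in primitive HSC (16.7%, beside 15.8% of all measured genes) and 8 in maturing HSC (22.2%, beside 17.5%). Tsg101, the ESCRT-I subunit that binds ubiquitin, read 2851 in primitive HSC against 2403 in maturing HSC, and Hgs, the cargo receptor of ESCRT-0, 2231 against 2417. Both were inside the probe set spread.

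Further ESCRT partners stood on either side. Ubap1, an alternative ESCRT-I subunit, read 3211 in primitive HSC against 335 in maturing HSC, at least 7.28-fold higher in primitive HSC. Vta1, the cofactor that stimulates Vps4, read 3155 in primitive HSC against 302 in maturing HSC, a gap of no less than 7.16-fold. Toward maturing HSC, Mvb12a of ESCRT-I read 783 in primitive HSC against 2222 in maturing HSC, and Ist1, which regulates Vps4, 2040 against 5084, 2.84-fold and 2.49-fold higher in maturing HSC. Snf8, the third ESCRT-II subunit, read 168 in primitive HSC against 756 in maturing HSC, opposite in side to Vps36.

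Genes of phosphoinositide synthesis included Becn1, Pik3r4 and Fig4. Becn1, a subunit of the lipid kinase that marks endosomes, read 798 in primitive HSC against 2354 in maturing HSC, 2.95-fold higher in maturing HSC. Its scaffold partner Pik3r4 read 401 in primitive HSC against 892 in maturing HSC and the phosphatase gene Fig4 378 against 1514, differences of no less than 2.02-fold and 3.44-fold toward maturing HSC. The kinase subunit Pik3c3 itself was nearly level, at 454 in primitive HSC against 509 in maturing HSC. Eea1, an early endosome tether that binds the lipid product, read 2953 in primitive HSC against 860 in maturing HSC, 3.43-fold higher in primitive HSC.

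Among genes that act beside the tethers and retriever, Vipas39, Commd9 and Washc3 passed 2-fold toward primitive HSC and Lyst toward maturing HSC. Vipas39, the partner of Vps33b, read 3862 in primitive HSC against 1861 in maturing HSC, Commd9 of the retriever-linked COMMD proteins 4311 against 1258, and Washc3 of the actin-nucleating WASH complex 4074 against 1968. Other WASH genes did not reach 2-fold and lay on both sides. Washc1 read 309 in primitive HSC against 620 in maturing HSC, Washc2 791 against 1371 and Washc4 685 against 530, with the primitive Washc1 value under the floor. Lyst, a regulator of lysosome size, read 111 in primitive HSC against 909 in maturing HSC, at least 2.06-fold higher in maturing HSC. Among receptors that retromer recycles, Sort1 read 308 in primitive HSC against 2340 in maturing HSC, at least 5.31-fold higher in maturing HSC. For M6pr the values were 919 in primitive HSC and 2778 in maturing HSC, a 3.02-fold difference. Igf2r, the other mannose 6-phosphate receptor gene, read 1239 in primitive HSC against 732 in maturing HSC, inside the probe set spread.

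Genomic span, a property the naming rule did not use, showed little relation to the ratios. Across the 53 measured members the Spearman correlation of log2 ratio with span was -0.10 and the Pearson correlation with log2 span -0.04, beside -0.14 for both measures across 8839 measured genes with a span. Members had a median span of 26.4 kb and all these genes one of 21.3 kb. Genes share the same 2 libraries and are not independent replicates.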

How the data were processed

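The values deposited by the authors are linear signal intensities. Per the submitters' processing notes they come from MAS5, of a version not stated there. The 22690 probe sets (64 controls) were rescaled to the same 2% trimmed mean of non-control probe sets, with factors of 1.002 for primitive and 0.998 for maturing HSC, and printed intensities carry this factor. The platform annotation gave a single symbol for 20380 probe sets. The probe set with the highest mean stood for a gene. Intensities under the pooled median (440.8) were set to that floor, so a gene under it on 1 array gives a bound and a gene under it on both was not measured. Ratios are log2 of primitive over maturing HSC. With 1 array a group no test was made, and the number of arrays limits the precision. MAS5 scaling hides any difference in total RNA.

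Members, role groups, the partner and marker lists, the 4-fold threshold and the alternatives were chosen with earlier results of these data known. Any member may be named, with all probe sets given past 4-fold, and partners are given past 2-fold. Probe sets agree where all those measured went the same way. Other partners named (Tsg101, Hgs, Snf8, Pik3c3, Igf2r, Washc1, Washc2, Washc4) were chosen after their values were seen, as were the paralogue comparisons and promoter choices. Protein length was to be compared with the ratios, and genomic span from RefSeq was used in its place. Motifs were searched on both strands of the 250 bases before each start. The steps were tested on simulated data. Tools were matplotlib 3.10.9, statsmodels 0.14.6, scipy 1.17.1, pandas 2.3.3, numpy 2.4.6 and Python 3.11.15.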

Additional observations from a re-analysis of the deposited data

How the results depend on the processing

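No paired analysis was possible because each population had 1 array, and for the same reason no replicate could be left out. The 2 members past 4-fold toward primitive HSC were Vps36 and Vps37a under each alternative, apart from the following. With the floor at percentile 25 Chmp6 joined them to make 3 (5.36%, beside 6.81% of all measured genes). With bounds left out 1 remained (Vps36, since Vps37a is a bound), which is 3.03% beside 3.60%. At 2-fold there were 10 (18.9%, beside 15.8%). The 5 members past 4-fold toward maturing HSC became 3 after quantile normalization, after lowess and with the median of probe sets (Snx1, Snx17 and Snx18). With bounds left out there were 3 (Chmp4b, Snx1 and Snx17). When probe sets open to several transcripts were dropped, 2 remained (Snx18, and Snx4 with no settled direction). Snx1 and Snx17 were read only by such probe sets, and Chmp4b moved to a log2 ratio of -0.79. Scaling to the hybridisation controls gave 9, the floor at percentiles 25 and 75 gave 11 and 1, and 2-fold and 8-fold gave 13 and 0. Shares of all genes past 4-fold toward maturing HSC also moved. They were 4.16% after quantile normalization and 4.31% after lowess (members 5.66% each), and 3.63% with the median of probe sets (members 5.88%). Bounds left out gave 3.50% (members 9.09%), and dropped probe sets 4.62% (members 5.13%). Scaling to the hybridisation controls gave 13.5% (members 17.3%), and the floor at percentiles 25 and 75 gave 8.84% and 2.51% (members 19.6% and 2.70%). At 8-fold 0 members and 60 of all genes (0.68%) were left in that direction. Scaling to the hybridisation controls moved the median log2 ratio of the members to -0.73, of sorting nexins to -0.83 and of retromer and retriever genes to -1.27. In these cases the alternative's own scaling, floor, threshold or gene set moved the values. For the retromer and retriever genes, the exchanged Vps35 probe set and the loss of Vps26c also entered the median. Snx4 changed direction after quantile normalization (1.99) and Vps35 when scaled to the hybridisation controls (-3.66), in each case because the other probe set came to stand for the gene. The floor also limits what can be seen, since 20 of the 53 measured members are bounds.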
